A study of Mus musculus with 8 samples.

Results

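The fatty acid elongases Elovl1, Elovl2, Elovl3, Elovl5 and Elovl6 and the fatty acid desaturases Fads1, Fads2, Fads3, Scd1 and Scd2 were followed in the livers of female mice. These 10 genes were chosen by name and are 10 of the 14317 mouse genes with values. Liver RNA was sequenced from 4 mice with an empty silastic pellet (Con-Veh) and from 4 mice with a 10 mm pellet of dihydrotestosterone (Con-DHT), an androgen that is not converted to estrogen, and each library came from 1 mouse. All 8 mice were on a western diet (WD) for 8.5 weeks, a feed rich in fat from palm oil, fructose and cholesterol. The labels call every mouse WT, while the methods describe females of a floxed line that received their pellets at 7 weeks of age. Pellets were renewed during the study, an overnight fast before euthanasia is described, and no sequencing batch is given.

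Elongases add carbons to fatty acids that come from the diet or from fatty acid synthase, as the first and rate-limiting step of a cycle on the membrane of the endoplasmic reticulum. ELOVL6 extends palmitate to stearate, ELOVL5 and ELOVL2 extend polyunsaturated fatty acids, and ELOVL1 and ELOVL3 work on saturated and monounsaturated chains, those of ELOVL1 being very long. Desaturases place double bonds. The stearoyl-CoA desaturases SCD1 and SCD2 make oleate and palmitoleate, FADS2 and FADS1 act in turn on linoleate and α-linolenate on the way to arachidonic acid and its omega-3 counterparts, and FADS3 is the least studied of the FADS enzymes, with a reported activity on sphingoid bases. In mouse liver, SCD1 is the main stearoyl-CoA desaturase, and Elovl3 is known as a gene with a higher level in males than in females. The question was which of these transcripts went with DHT treatment.

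The 10 genes lie on 5 chromosomes, and 6 of them are on chromosome 19. In GRCm38, Fads3 (10041569 to 10060110), Fads2 (10062765 to 10101746) and Fads1 (10182888 to 10196877) form a cluster there, Scd2 (44293674 to 44306864) and Scd1 (44394455 to 44407879) are neighbours, and Elovl3 spans 46131897 to 46135694. Elovl6 is on chromosome 3 from 129532355 to 129638495, Elovl1 on chromosome 4 from 118428093 to 118432953, Elovl5 on chromosome 9 from 77917364 to 77984519 and Elovl2 on chromosome 13 from 41182381 to 41220405. Promoter windows for 6 of the 10 genes, Elovl1, Elovl2, Elovl5, Elovl6, Fads2 and Fads3, were found in the RefSeq table (GRCm38.p6). The 250 bases before the RefSeq start of transcription are shown, 5′ to 3′ on the coding strand. They are given for the genes with a window that were higher in Con-DHT. Capitals mark a CCAAT box (CCAAT on either strand). The RefSeq starts differ from the outermost GENCODE starts that give the spans above, so that 243 bases of the Fads2 window and 31 of the Elovl6 window lie inside those spans, and 0 of the Fads3 window do.
Elovl6, chr3:129532136-129532385, plus strand: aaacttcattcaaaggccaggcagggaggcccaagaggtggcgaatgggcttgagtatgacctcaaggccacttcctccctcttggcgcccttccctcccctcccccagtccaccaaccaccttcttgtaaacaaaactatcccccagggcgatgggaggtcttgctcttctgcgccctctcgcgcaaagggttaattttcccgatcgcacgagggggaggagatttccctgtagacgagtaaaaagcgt
Fads2, chr19:10101504-10101753, minus strand: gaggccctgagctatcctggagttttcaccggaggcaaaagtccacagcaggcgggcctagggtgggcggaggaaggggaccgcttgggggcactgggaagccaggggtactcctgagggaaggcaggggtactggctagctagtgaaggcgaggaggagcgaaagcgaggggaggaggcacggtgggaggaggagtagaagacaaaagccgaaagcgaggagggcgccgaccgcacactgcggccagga
Fads3, chr19:10041298-10041547, plus strand: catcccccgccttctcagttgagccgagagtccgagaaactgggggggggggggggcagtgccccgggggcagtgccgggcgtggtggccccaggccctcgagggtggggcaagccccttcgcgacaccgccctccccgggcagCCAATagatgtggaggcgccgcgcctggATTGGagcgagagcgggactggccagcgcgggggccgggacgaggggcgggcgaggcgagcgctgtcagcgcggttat
Among these windows, that of Fads3 was the richest in G and C, at 74.4% of its bases, against 64.8% for Fads2 and 56.4% for Elovl6. Both CCAAT boxes shown were in the Fads3 window. Such boxes were also found before Elovl1 and Elovl5, neither of which was called higher in Con-DHT. The share of the 32851 promoter windows of the same length in the table with at least 1 such box was 33.8%. The other motifs searched on both strands included the STAT5 motif TTCNNNGAA (7.02% of all windows), the E-box CACGTG (6.02%), the sterol regulatory element TCACNCCAC (1.05%), the DR1 element (AGGTCA repeated after 1 base, 0.033%), the DR4 element (AGGTCA repeated after 4 bases, 0.015%) and the D-box TTATGTAA (0.82%). None of these letters were found in the windows of Elovl6, Fads2 and Fads3, and among the other members an E-box was found before Elovl5. No match overlapped another.

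The deposited values are read counts divided by a size factor for each library, called normalized read counts here. They rest on 13123962 to 17815944 reads on mouse genes per library, so that the weakest member in any library, Elovl3, still had 96 reads. Hepatocyte transcripts such as Alb, Apoa1 and Cps1 were abundant in every library and 0 of the 7 hepatocyte markers passed with limma (0 at an unadjusted p of 0.05 and 1 with DESeq2). Of the Kupffer cell markers, 3 of 6 (Clec4f, Vsig4 and Cd5l) were lower in Con-DHT, with a summed normalized read count of 5357 to 6766 in Con-Veh and 3636 to 4932 in Con-DHT. All 6 were lower at an unadjusted p of 0.05 (limma), and DESeq2 called 3. Of all 14312 tested genes, 3321 had an unadjusted p of 0.05 or less (limma). Sinusoidal endothelial cell markers were lower in 2 of 6 (Stab2 and Lyve1), with sums of 3259 to 3620 and 2399 to 2778. At an unadjusted p of 0.05, 4 of them were lower (limma), while edgeR called 1 and DESeq2 called 3. In bulk liver, fewer cells of a type and less RNA per cell cannot be told apart. The 4 adipocyte markers did not pass the test, but their sum reached 2524 in Con-DHT against at most 785 in Con-Veh, through Cfd in Con-DHT 3 and 4. Con-DHT 4 was the highest of its group for all 4 markers. The markers were split in Con-DHT 3, where Cfd (1713) and Adipoq (228) exceeded Con-DHT 1 and 2. Plin1 (67.4) and Lep (1.02) were the lowest of the group there. Of the pancreatic acinar cell markers, Cela1 was higher in Con-DHT (sum 59.4 to 84.9 against 93.9 to 186) and Prss2, Pnlip and Cpa1 had no values. Of the 5 lymphocyte markers only Ptprc had values, and Cd3e, Cd3d, Cd79a and Ms4a1 had none. Limma called 0 of the stellate cell, cholangiocyte, lymphocyte and red blood cell markers with values. Of these 1, 0, 1 and 2 had an unadjusted p of 0.05 or less and DESeq2 called 1, a red blood cell marker. The part of these cells in the results on the 10 genes was not tested, and results are also given without Con-DHT 3 and 4.

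DHT was accompanied by higher levels of Elovl3, Fads3, Scd2, Elovl6 and Fads2. These were 5 of the 10 genes, 2 of the 5 elongases and 3 of the 5 desaturases, with an adjusted p not above 0.05 (limma on log2(value + 1), Benjamini-Hochberg over 14312 genes). None of the 10 was lower. By the same rule 4.6% of all tested genes were higher and 2.61% lower. The 10 genes had a median log2 fold change of 0.51, against -0.0081 for all tested genes. For 4 of the 10, namely Elovl3, Scd2, Elovl6 and Fads2, every Con-DHT library was above every Con-Veh library, a pattern that 8.49% of all tested genes showed. With 4 mice against 4, an exact two-sided permutation test cannot go below p = 0.029, the value for each of these genes.

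Run on the recovered reads, edgeR's quasi-likelihood test also gave 5 higher members, against 4.7% of all genes, and DESeq2 gave 6, against 6.45%. The additional gene was Elovl2. Scaling by the spike-in transcripts left 3 members called higher (Elovl3, Fads3 and Scd2), against 571 of all 14312 tested genes. The adjusted p of Elovl6 and Fads2 became 0.054 and 0.11 (limma).

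**Figure D1:**
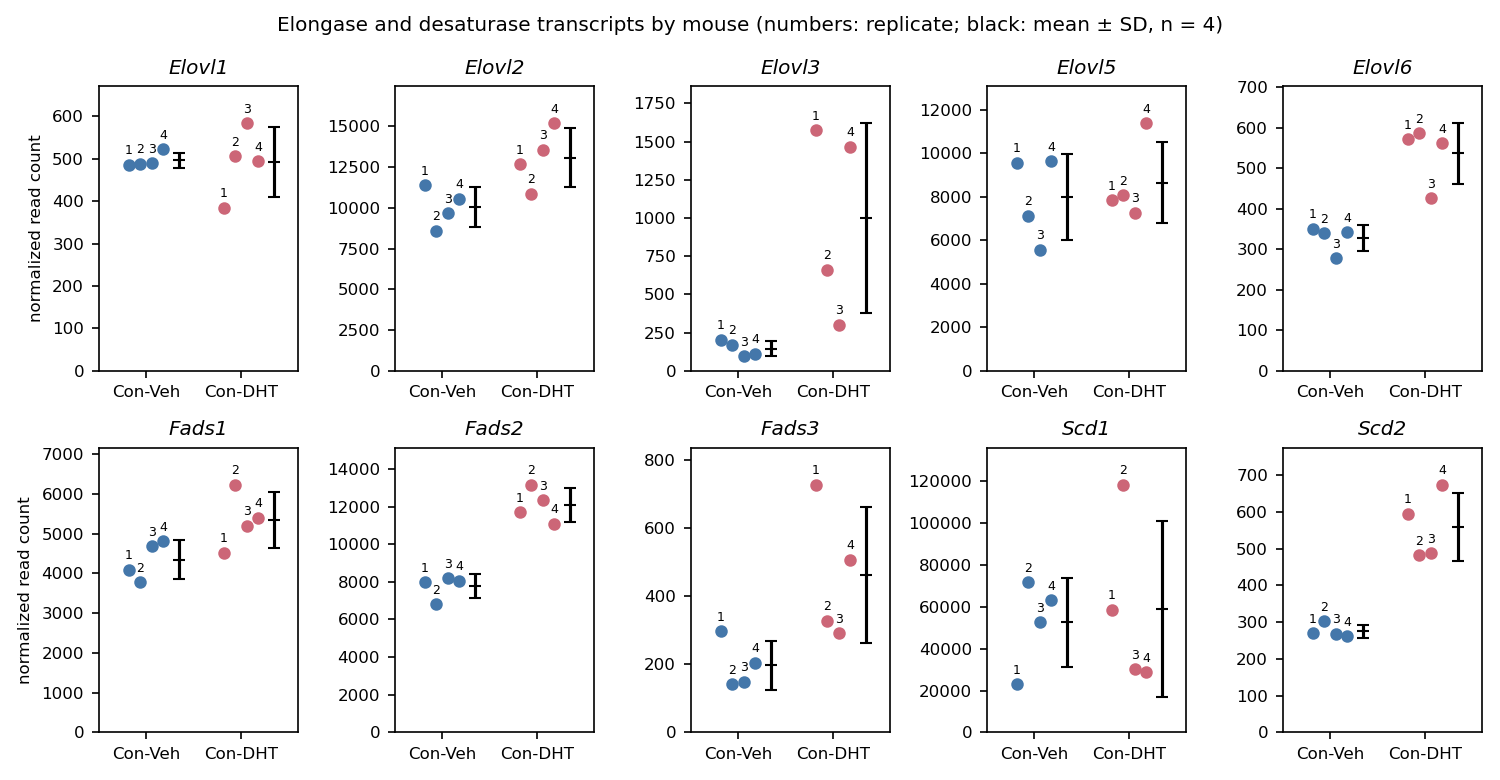
Normalized read counts of the 10 genes in each library (vertical axes, linear and starting at 0) for 4 Con-Veh and 4 Con-DHT mice, numbered by replicate, with the mean and SD of each group in black. All 4 Con-DHT points lie above all 4 Con-Veh points for Elovl3, Elovl6, Fads2 and Scd2, while Scd1 spans 23052 to 118378 with overlapping groups.

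Elovl3, the elongase of saturated and monounsaturated chains, had normalized read counts of 204, 171, 95.8 and 113 in the Con-Veh livers and of 1576, 662, 301 and 1465 in the Con-DHT livers. The groups did not overlap, yet the Con-DHT livers differed among themselves, with Con-DHT 1 and 4 high and Con-DHT 3 lowest. The means were 146 ± 50.4 and 1001 ± 619 (SD, n = 4), which is a 6.85-fold higher level. Its log2 fold change of 2.55 (SE 0.48, adjusted p = 0.011, limma) was the largest among the 10 genes. It passed the test in all 8 fits that left out a mouse, with log2 fold changes between 2.24 and 3.04.

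Pitx3, a homeobox gene on the opposite strand, shares 10 exon bases with Elovl3, and whether reads were counted by strand is not stated. It had 0, 0, 1 and 1 reads in the Con-Veh livers and 44, 30, 8 and 32 in the Con-DHT livers, so that Con-DHT 1 was highest and Con-DHT 3 lowest, as in Elovl3. In Con-DHT the reads of Pitx3 were 2.37% to 4.39% of those of Elovl3. Against a floor of 3 reads per Con-Veh library, Pitx3 in Con-DHT was higher by at least 9.76-fold (adjusted p = 0.0018, limma). It met the filter on the mean over all livers only through its Con-DHT livers. Reads from the shared bases cannot be assigned to either gene without strand.

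Elovl6, which makes stearate from palmitate, had normalized read counts of 351, 340, 279 and 342 in Con-Veh livers and 572, 586, 426 and 562 in Con-DHT livers. Even Con-DHT 3, the lowest of its group, was above the highest Con-Veh liver. The level rose from 328 ± 33.2 to 537 ± 74.6 (SD, n = 4), which is a change of 0.70 on the log2 scale (SE 0.12, adjusted p = 0.0071, limma). Spike-in scaling shifted the log2 fold change of all genes by a median of 0.20 and adds nearly the same amount to each, so that a change relative to that shift (0.71 for Elovl6) returns the value above by construction.

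Elovl2, which extends C20 and C22 polyunsaturated chains, had 11391, 8597, 9673 and 10557 in Con-Veh and 12677, 10856, 13579 and 15195 in Con-DHT as normalized read counts. Only Con-DHT 2 lay within the range of the Con-Veh livers. The log2 fold change was 0.38 (SE 0.12, 95% interval 0.10 to 0.65) and did not pass (adjusted p = 0.0997, limma). It did so with DESeq2 (adjusted p = 0.035) and with scaling to an equal total without the major urinary protein (Mup) genes (adjusted p = 0.042, limma).

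Elovl5, which acts before ELOVL2 on C18 and C20 polyunsaturated chains, had 9568, 7134, 5574 and 9633 in Con-Veh and 7847, 8064, 7273 and 11382 in Con-DHT. The groups overlapped, with Con-DHT 4 above and the other Con-DHT livers inside the Con-Veh range. The change of 0.13 on the log2 scale (SE 0.19), with a 95% interval from -0.30 to 0.56, did not pass (adjusted p = 0.74, limma).

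Elovl1, which makes very long saturated chains for sphingolipids, had 486, 488, 489 and 523 in Con-Veh, the tightest group of any member with a coefficient of variation of 3.56%. Its Con-DHT livers had 385, 506, 584 and 495, and they lay on either side of the Con-Veh livers. The log2 fold change was -0.03 (SE 0.12, 95% interval -0.28 to 0.23, adjusted p = 0.92, limma), and its sign turned under both the Mup-free and the spike-in scaling.

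Among the desaturases, Scd2 had the smallest adjusted p. This isoform of stearoyl-CoA desaturase is known for high levels in brain and in young animals. It had normalized read counts of 269, 302, 269 and 261 in Con-Veh livers and 596, 482, 488 and 674 in Con-DHT livers. Each Con-DHT liver was above the Con-Veh range, and Con-DHT 1 and 4 were the highest. The mean went from 275 ± 18.3 to 559.8 ± 92.3 (SD, n = 4), a 2.03-fold higher level and a difference of 1.01 on the log2 scale (SE 0.12, adjusted p = 0.00094, limma). Every alternative setting and every fit without 1 mouse kept it past the threshold, with adjusted p of at most 0.0082.

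Scd1, the main hepatic isoform, varied most in absolute terms. Its normalized read counts were 23052, 71742, 52584 and 63281 in Con-Veh and 58643, 118378, 30072 and 28755 in Con-DHT. Con-Veh 1 was low, Con-DHT 2 was the highest of all livers, and Con-DHT 3 and 4 were near the low Con-Veh liver, so that the groups overlapped widely. With a coefficient of variation of 40.3% in Con-Veh livers and 71.1% in Con-DHT livers, the log2 fold change of 0.03 (SE 0.48, adjusted p = 0.98, limma) had a 95% interval from -1.03 to 1.09. A change of 2-fold in either direction therefore could not be told from none in Scd1. The sign turned when Con-Veh 1 (-0.33), Con-DHT 1 (-0.05) or Con-DHT 2 (-0.39) was left out.

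Fads2, the delta-6 desaturase that starts the polyunsaturated pathway, had 7975, 6804, 8203 and 8066 in Con-Veh and 11690, 13162, 12337 and 11079 in Con-DHT. The groups were separate, and within each of them the livers were close to each other. The normalized read count rose from 7762 ± 646 to 12067 ± 893 (SD, n = 4), which is a change of 0.64 on the log2 scale (SE 0.09, adjusted p = 0.0032, limma). All 8 fits without 1 mouse kept the call.

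Fads1, the delta-5 desaturase that acts after FADS2, had 4086, 3771, 4682 and 4813 in Con-Veh and 4523, 6228, 5193 and 5395 in Con-DHT. Con-DHT 1 lay within the Con-Veh range and the other Con-DHT livers above it. The log2 fold change was 0.30 (SE 0.11, 95% interval 0.04 to 0.55) and did not pass after adjustment (adjusted p = 0.15, limma). Per kilobase of transcript, the ratio of Fads2 to Fads1 was 2.14, 1.98, 1.92 and 1.84 in Con-Veh and 2.84, 2.32, 2.61 and 2.26 in Con-DHT. Each Con-DHT liver had a higher ratio than each Con-Veh liver, with means of 1.97 ± 0.13 and 2.51 ± 0.27 (SD, n = 4). The groups overlapped in the ratios of Elovl2 to Elovl5 (0.95 ± 0.21 and 1.12 ± 0.18) and of Scd1 to Scd2 (215 ± 82.3 and 127 ± 104).

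Fads3 had 297, 141, 149 and 205 in Con-Veh and 728, 328, 292 and 508 in Con-DHT. The groups met at a single point, where Con-DHT 3 (292) was just below Con-Veh 1 (297). The means were 198 ± 71.9 and 464 ± 200 (SD, n = 4), which is a change of 1.19 on the log2 scale (SE 0.31, adjusted p = 0.044, limma). This call rested on few mice, as it was lost without Con-Veh 2 (adjusted p = 0.11), 3 (0.096) or 4 (0.087) and without Con-DHT 1 (0.093), 2 (0.057) or 4 (0.0998), and also without the intensity trend (0.088) and among genes with a mean of at least 50 (0.056). The log2 fold change stayed between 0.94 and 1.41 in the fits that left out 1 mouse.

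**Figure D2:**
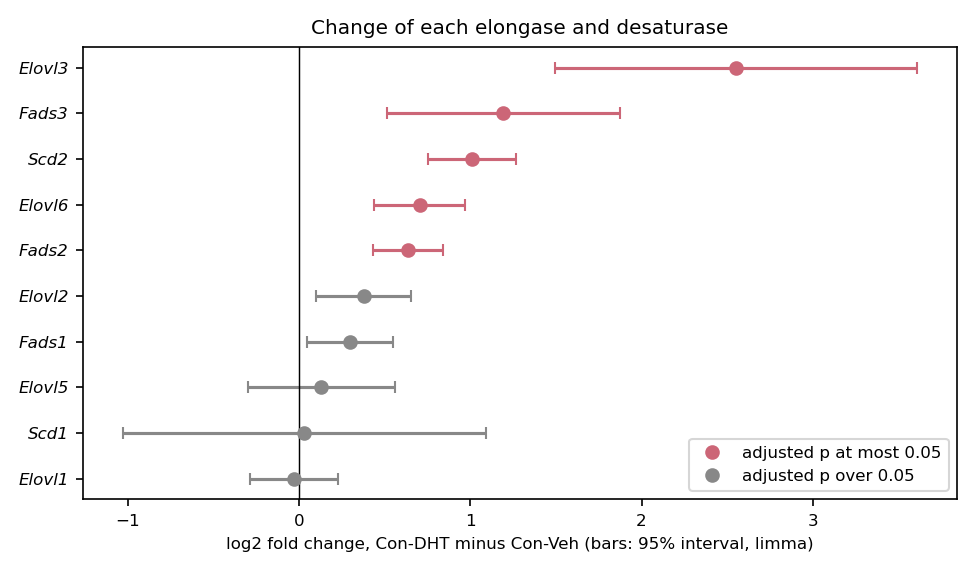
Log2 fold change of each gene (horizontal axis, Con-DHT minus Con-Veh, on log2(value + 1)) with the 95% interval of the limma fit as bars, 4 mice per group. Red points are the 5 genes with an adjusted p of at most 0.05, from Elovl3 (2.55) to Fads2 (0.64), and the interval of Scd1 runs from -1.03 to 1.09.

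Without Con-DHT 3 and 4, the livers with the most Cfd, 4 of the members were still higher by limma (Elovl3, Elovl6, Fads2 and Scd2). In that fit 296 of all 14148 tested genes were higher. Fads3 had an adjusted p of 0.092 at a log2 fold change of 1.37, which was no smaller than with all livers. The log2 fold change of Scd1 moved to 0.78 without Con-DHT 3 and 4 (adjusted p = 0.40, limma), since both were low in Scd1. This choice was made after the values were seen and leaves 2 Con-DHT livers against 4 Con-Veh livers. Con-DHT 3 was the lowest Con-DHT liver for 3 of the 5 higher members (Elovl3, Elovl6 and Fads3). Across all 658 genes that were higher in Con-DHT it was the lowest liver in 44.2%, and Con-DHT 4 was the highest in 46.0%.

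Divided by transcript length, the levels could be set beside each other within a liver. Scd1 was the most abundant desaturase in every liver, at 71.6% ± 11.4 of the summed length-normalized level of the 5 desaturases in Con-Veh and 63.7% ± 13.4 in Con-DHT (SD, n = 4). Fads2 followed with 18.4% ± 7.67 and 24.8% ± 9.09, and Fads1 with 9.22% ± 3.26 and 9.97% ± 3.88. Fads3 (0.43% and 0.83%) and Scd2 (0.37% and 0.69%) made up the remainder, and their levels per kilobase were not apart beyond their spread, at 53.7 ± 19.5 and 50.5 ± 3.35 in Con-Veh and at 126 ± 54.2 and 103 ± 16.9 in Con-DHT. Because the level of Scd1 varied so much, these shares overlapped between the groups. Without Scd1, the summed length-normalized level of the other 4 desaturases was 3843, 3343, 4047 and 4055 per kilobase in Con-Veh and 5325, 6156, 5586 and 5338 in Con-DHT. These sums did not overlap and were mostly Fads2 and Fads1.

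Among the elongases, Elovl5 and Elovl2 held nearly all of the length-normalized level, at 48.2% ± 4.98 and 44.8% ± 4.52 in Con-Veh and 41.8% ± 3.35 and 46.2% ± 4.44 in Con-DHT (SD, n = 4). Their order did not exceed the spread, and with the union of all exons as length Elovl2 came first in Con-Veh too, at 2535 ± 302 per kilobase against 2265 ± 562. Elovl3 was 1.32% ± 0.41 of the elongases in Con-Veh and 6.96% ± 3.93 in Con-DHT, from 2.39% to 11.5% among the Con-DHT livers. Per kilobase, the ratio of Elovl3 to Elovl1 was 0.41, 0.34, 0.19 and 0.21 in Con-Veh and 3.94, 1.26, 0.50 and 2.85 in Con-DHT. Elovl1 was thus above Elovl3 in every Con-Veh liver, and below it in every Con-DHT liver but Con-DHT 3. Elovl6 was the least abundant elongase on average in both groups, at 0.95% and 1.24%.

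**Figure D3:**
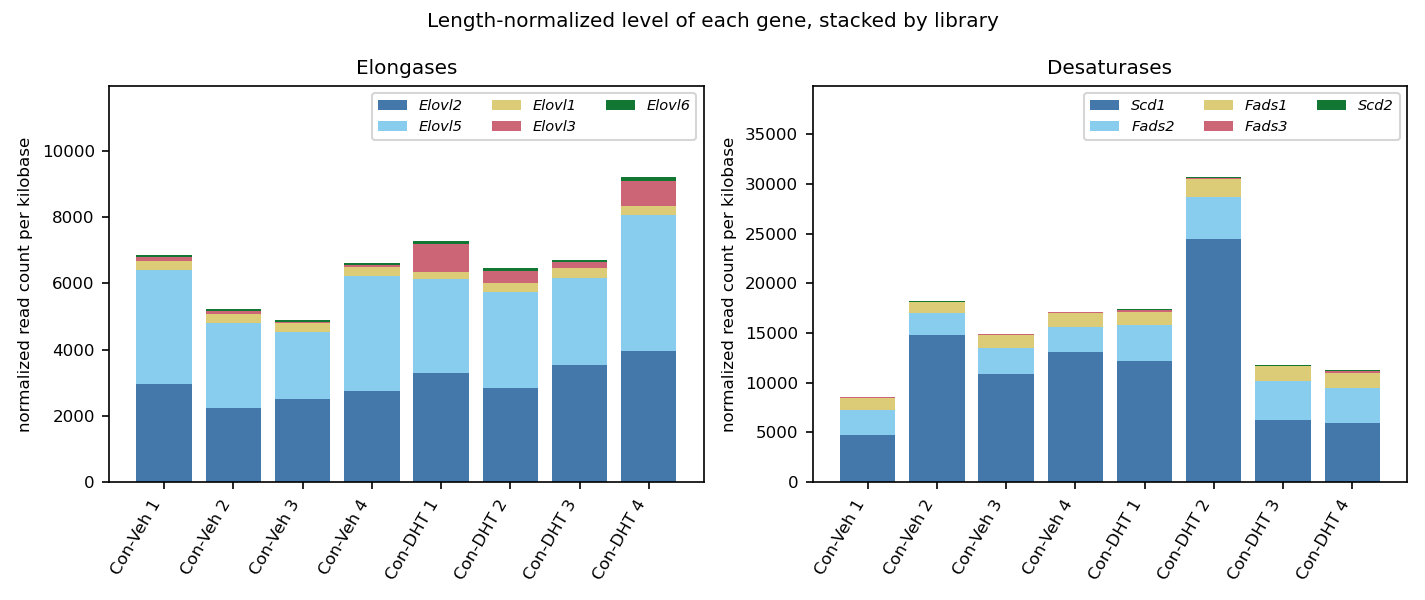
Normalized read count per kilobase of the longest coding transcript (vertical axes, linear from 0) in each of the 8 libraries, stacked by gene, with the 5 elongases on the left and the 5 desaturases on the right. Elovl2 and Elovl5 fill most of every elongase bar, Elovl3 widens in the Con-DHT bars up to 11.5% of the sum, and Scd1 sets the height of the desaturase bars.

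Few reads could have been shared with other genes. No stretch of 150 bases in their longest transcripts was shared with another gene, except in Scd1, where 36 of 4683 such stretches (0.77%) also occur in Scd3. Besides Pitx3, Cdc20 shares 53 exon bases with Elovl1 and Gm35986 shares 34 with Elovl6, both on the opposite strand, and their mean normalized read counts of 10.8 and 13.0 were small beside those of the members. Mir5114, a microRNA gene with no values here, shares 61 exon bases with Scd2 on the same strand.

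The genes whose log2 profile over the 8 livers, centred on the Con-Veh mean, was most like that of each higher member were picked by the root-mean-square difference among genes with a mean of at least 50. For Elovl3 these were C6, which encodes a complement component (0.44), Selenbp2 (0.52) and Cyp7b1, an oxysterol hydroxylase (0.54). For Elovl6 they were Bbx (0.091), Chid1 (0.11) and Chgb (0.11), and for Fads2 they were Clstn1 (0.12), Phyh, which starts the breakdown of phytanic acid in peroxisomes (0.12), and Crim1 (0.13). Fads3 was closest to Pkdrej (0.30), Myo5a (0.33) and S100a6 (0.33), and Scd2 was close to Gm13509 (0.099) and Pkm, a pyruvate kinase gene (0.10). The 8 livers are the same for every gene, and the likeness includes the difference between the groups.

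After condensation by an elongase, the cycle is completed by a ketoreductase, a dehydratase and an enoyl reductase. Of 6 tested genes for these partners, 1 was higher. Hsd17b12, the ketoreductase, had normalized read counts of 1063, 1105, 1188 and 1233 in Con-Veh livers and 1773, 1820, 1273 and 1752 in Con-DHT livers. Con-DHT 3 was far below the other Con-DHT livers and still above every Con-Veh liver. Its log2 fold change was 0.52 (SE 0.11, adjusted p = 0.024, limma), and the call was lost in 5 of the 8 fits that left out 1 mouse (without Con-Veh 1 or 2 and without Con-DHT 1, 2 or 4), with adjusted p up to 0.070. Hsd17b12 did not pass with spike-in scaling (adjusted p = 0.21, limma) and did without Con-DHT 3 and 4 (0.010). The dehydratases Hacd1, Hacd2, Hacd3 and Hacd4 and the enoyl reductase Tecr did not pass, and the median of the list was -0.01.

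Desaturases take electrons from cytochrome b5 and its reductase, and 0 of 5 tested genes of this chain passed with limma, edgeR or DESeq2 (1 at an unadjusted p of 0.05). The smallest unadjusted p belonged to Cyb5r3 (log2 fold change 0.22, adjusted p = 0.19) and Cyb5r1 (0.25, adjusted p = 0.27, limma). Of 7 other elongases and lipid desaturases, Scd3 was the gene that was higher. This close relative of Scd1 had normalized read counts of 24.2, 12.5, 5.99 and 4.35 in Con-Veh livers and 52.0, 84.2, 64.3 and 78.3 in Con-DHT livers. All Con-DHT livers were above all Con-Veh livers at these low levels, and the change on the log2 scale was 2.71 (SE 0.44, adjusted p = 0.0054, limma), and its counts are uncertain where it matches Scd1. The reads of Scd1 outnumbered those of Scd3 many times over. The same Con-DHT liver had the highest normalized read count of Scd1 (118378) and of Scd3 (84.2), while the order of the other Con-DHT livers differed. The part of Scd1 reads in the counts of Scd3 was not tested. The call of Scd3 held in all 8 fits without 1 mouse and was lost without Con-DHT 3 and 4 (adjusted p = 0.056, limma), at a log2 fold change of 2.66. Elovl4, Elovl7, Fads6, Degs1, Degs2 and Fa2h did not pass.

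Fatty acid synthesis supplies the palmitate that ELOVL6 and the SCD enzymes use. Of its 16 tested genes and regulators, 0 passed with limma and with edgeR, and 1 passed with DESeq2. Those with the smallest unadjusted p were Acaca, which encodes acetyl-CoA carboxylase (log2 fold change 0.33, SE 0.09, adjusted p = 0.057), and Mlxipl, which encodes ChREBP (-0.33, SE 0.13, adjusted p = 0.15, limma). There were 4 genes with an unadjusted p not above 0.05, against 3321 of all 14312 tested genes (limma). The median was 0.05 on the log2 scale.

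Of 15 acyl-CoA synthetases and phospholipid acyltransferases, which activate fatty acids and place them in phospholipids, 3 were higher and 0 lower. Acsl1, the main hepatic long-chain synthetase, went from 18834 ± 3156 to 30749 ± 5490 (SD, n = 4; log2 fold change 0.70, adjusted p = 0.026, limma). Acsl4, which prefers arachidonic acid, went from 445 ± 71.3 to 664 ± 105 (log2 fold change 0.58, adjusted p = 0.034). Mboat1, a lysophospholipid acyltransferase gene, was weak, at 5.16 ± 1.09 and 15.2 ± 2.88 (log2 fold change 1.40, adjusted p = 0.021). Leaving out 1 mouse ended the call of Acsl1 in 5 of 8 fits (without Con-Veh 1, 2 or 3 and Con-DHT 1 or 4; adjusted p up to 0.067) and that of Acsl4 in 6 of 8 (without Con-Veh 2, 3 or 4 and Con-DHT 1, 3 or 4; up to 0.087). Mboat1 passed the filter in the 4 fits without a Con-Veh mouse and in none without a Con-DHT mouse. It was called in 2 of those 4, not without Con-Veh 2 or 4 (up to 0.054). Without Con-DHT 3 and 4, Acsl1 (log2 fold change 0.76, adjusted p = 0.067, limma) and Acsl4 (0.45, adjusted p = 0.18) did not pass. Nor did Acsl1 and Acsl4 pass with spike-in scaling (adjusted p = 0.086 and 0.14, limma).

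Peroxisomes shorten very long chains, and the last step to docosahexaenoic acid takes place there. Of 17 tested genes of this list, 2 were higher and 1 was lower. Scp2 encodes a peroxisomal thiolase and a sterol carrier protein, which values per gene do not tell apart. Its level rose from 33381 ± 2179 to 56719 ± 6388 (SD, n = 4; log2 fold change 0.76, adjusted p = 0.0063, limma). Abcd3, a transporter of branched and long-chain acyl-CoA, rose from 6797 ± 526 to 9164 ± 769 (log2 fold change 0.43, adjusted p = 0.020). The call of Abcd3 was lost without Con-DHT 1 or 2, with adjusted p up to 0.058. Abcd2, a transporter of very long and polyunsaturated acyl-CoA, was the one that fell. Its normalized read counts were 613, 674, 1007 and 906 in Con-Veh and 285, 361, 441 and 404 in Con-DHT. The groups did not overlap and the log2 fold change was -1.09 (SE 0.18, adjusted p = 0.0057, limma). DESeq2 called 8 genes of this list, as did limma with Mup-free scaling, and with spike-in scaling 0 were called. Over all 14312 tested genes these settings called 1569, 1290 and 645. Mup-free scaling moved the median log2 fold change of all genes to 0.090, and 1082 of its 1290 calls were higher.

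PPARalpha is a lipid sensor that raises several of the genes above during fasting. Of 16 genes for it and its targets, Cpt1a, which controls the entry of fatty acids into mitochondria, was higher (log2 fold change 0.50, SE 0.10, adjusted p = 0.012, limma) and 0 were lower. DESeq2 and limma with Mup-free scaling called 4 genes of this list and limma with spike-in scaling 0. Their calls over all 14312 tested genes were 1569, 1290 and 645. The call of Cpt1a was lost with spike-in scaling (adjusted p = 0.28) and without Con-DHT 3 and 4 (log2 fold change 0.49, adjusted p = 0.067). Of 7 tested ceramide synthesis genes, Cers6, a ceramide synthase for C16 chains, fell from 466 ± 26.1 to 318 ± 65.6 (SD, n = 4; log2 fold change -0.57, adjusted p = 0.032, limma). That call was lost in 6 of 8 fits without 1 mouse (without any of the Con-Veh mice and without Con-DHT 1 or 4), with adjusted p up to 0.085. Cers6 also did not pass without Con-DHT 3 and 4 (log2 fold change -0.52, adjusted p = 0.087) or with spike-in scaling (-0.37, adjusted p = 0.85, limma). Cers2, whose enzyme uses the very long chains that ELOVL1 makes, changed by -0.07 (adjusted p = 0.75).

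Elovl3 is known to follow the time of day in mouse liver, and 14 clock genes were therefore examined. With all livers and the deposited scaling, the one that passed was Cry1, a repressor of the clock, at 144 ± 16.0 in Con-Veh and 103 ± 10.0 in Con-DHT (SD, n = 4; log2 fold change -0.48, adjusted p = 0.042, limma), and that call stood in 1 of 8 fits without 1 mouse, the one without Con-DHT 3. Without Con-DHT 3 and 4 together, Cry1 did not pass (log2 fold change -0.46, adjusted p = 0.14, limma). Other clock genes ranged from -1.12 (Npas2) to 1.83 (Dbp) on the log2 scale with wide errors (SE 0.59 and 0.65). Other clock genes passed under 2 of the alternatives, in which Cry1 did not, namely Dbp, Per3 and Ciart with spike-in scaling and Dbp, Nr1d1 and Cry2 without Con-Veh 3. In Con-Veh the normalized read count of Dbp, a clock output gene, ran from 140 to 1681, and in Con-DHT from 903 to 2583, so that the groups overlapped. The part of the clock genes in the result on Elovl3 was not tested.

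**Figure D4:**
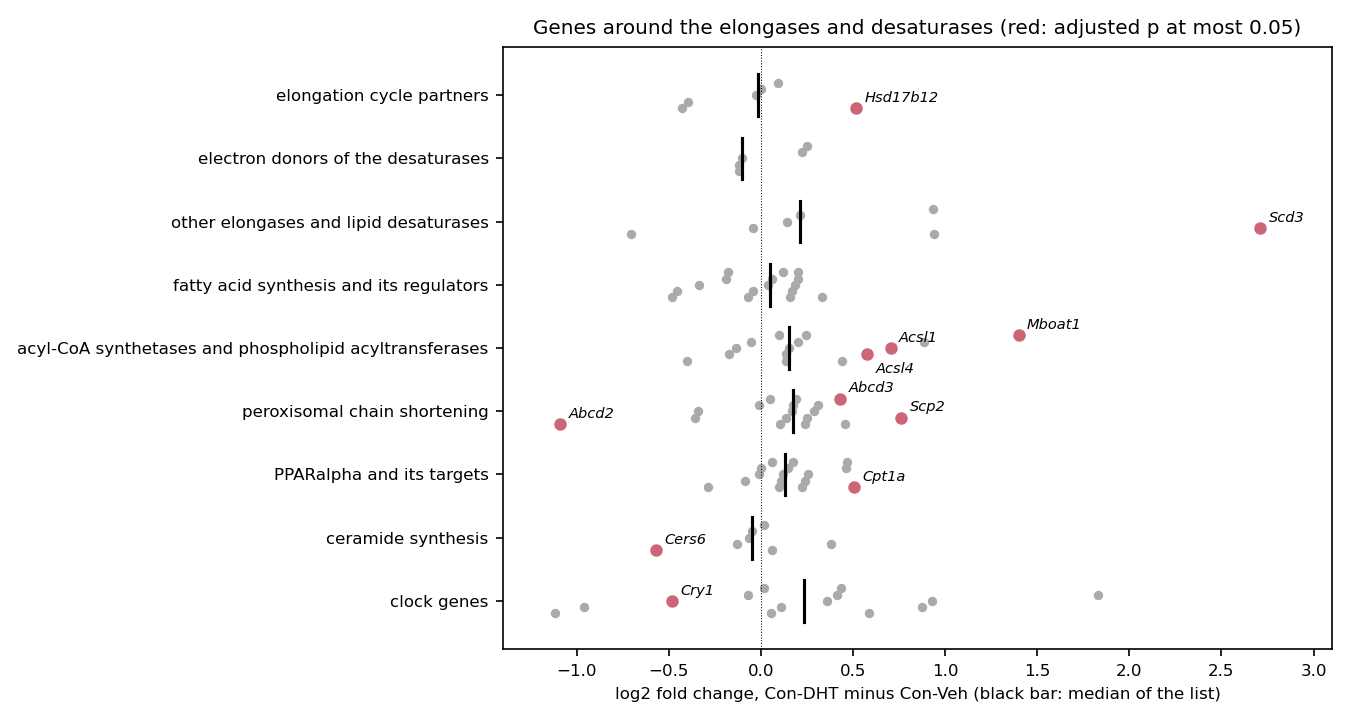
Log2 fold change (horizontal axis, Con-DHT minus Con-Veh, 4 mice per group) of every tested gene in 9 lists around the elongases and desaturases, with the median of each list as a black bar. Red points are the 11 genes with an adjusted p of at most 0.05, of which Scd3 (2.71) is farthest to the right and Abcd2 (-1.09) farthest to the left.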

How the data were processed

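RNA-seq values of 4 Con-Veh and 4 Con-DHT livers, grouped by the labelled treatment, were used. According to the methods and the submitters' processing notes, the authors trimmed reads with Trimmomatic, aligned them with STAR (GRCm39), counted uniquely mapped exon reads with featureCounts and tested with DESeq2; ERCC spike-in RNA had been added. The values the authors deposited are a normalized signal, read counts divided by 1 size factor per library, for 14371 features (54 spike-ins). No mouse gene had fewer than 81 reads in all. Dividing by the worth of 1 read gave whole numbers for 100% of values (tolerance 0.1).

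Groups were compared with limma 3.58.1 (lmFit, eBayes with trend; R 4.3.3) on log2(value + 1), which understates changes of weak genes, for the 14312 genes with a mean of at least 10, with Benjamini-Hochberg adjustment at 0.05. Alternatives were other pseudocounts (0.1, 5) and filters (none, a mean of 50 or more), quantile, upper-quartile, Mup-free total and spike-in scaling, no trend, edgeR 4.0.16 and DESeq2 1.42.0 on recovered reads, the replicate number as a block, and leaving out each library. The removal of Con-DHT 3 and 4 together was added after the data were seen. The members and lists were chosen with earlier results of these data known. Named were all 10 members, every list gene past the threshold or else the 2 with the smallest p, and the 3 genes most like each higher member, apart from items that are not reported here. Others named were chosen after their values were seen.

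Same-group libraries differed by a chi-square per degree of freedom of 19.1 to 61.2, so none was a duplicate. SDs cover animals and counting. The script was tested on simulated data. Gene positions and lengths (longest coding transcript) came from GENCODE M21 (GRCm38), matched by Ensembl identifier for 14287 genes, and promoters from RefSeq. Python 3.11.15 was used for the descriptions.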

Additional observations from a re-analysis of the deposited data

Results flagged for a closer look

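In 42 groups of 4 libraries (the 10 members and 11 list genes named above, in each treatment), 6 had a library whose gap to the others passed Dixon's 95% critical value, which chance gives in about 1 of 20 groups. Elovl6 had a low library in both groups, Con-Veh 3 at 279 and Con-DHT 3 at 426. Con-DHT 3 was also low for Hsd17b12, at 1273. In Con-Veh, Elovl1 was high in Con-Veh 4 (523), Fads2 was low in Con-Veh 2 (6804) and Abcd3 was low in Con-Veh 1 (6012). Elovl6 and Fads2 kept an adjusted p of at most 0.05 (limma) without the library in question.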

How the results depend on the processing

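Of all tested genes 1032 differed between the groups, 63.8% of them higher in Con-DHT. The count was 648 with a mean of at least 50, 645 with spike-in scaling, 1569 with DESeq2, 474 without Con-DHT 3 and 4, and 638 to 897 with each library left out, where the loss exceeded 1.5 times without Con-Veh 2 (649) or 4 (638) and Con-DHT 1 (651) or 2 (653). The share of higher genes was 83.9% with Mup-free scaling and 88.5% with spike-in scaling. Of the members, 5 were called, 3 with spike-in scaling and 4 to 5 with each library left out. Elovl3 and Scd2 passed under each of 13 other settings, Elovl6 and Fads2 under 12. The log2 fold change of Elovl1 turned to 0.071 with Mup-free scaling and 0.18 with spike-in scaling, and ran from -0.11 to 0.085 with each library left out, that of Elovl5 from -0.032 to 0.23 and that of Scd1 from -0.39 to 0.29. The cause of these changes was not tested. Libraries with the same replicate number did not deviate together (correlations -0.19 to -0.0060, none highest for its own number), and with the number as a block 700 genes and 5 members were called. Values are per gene, so isoforms were not examined, and 4 mice per group leave intervals such as that of Scd1 wide.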
